A study of Mus musculus with 2 samples.

Results

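The narrowest m6A peaks of the mouse uterus were 200 bases wide, and 2451 of them lay on chromosomes 1 to 19. They were chosen by the width of the deposited peaks, end minus start, which had to be exactly 200 bases. They made up 6.59% of the 37173 autosomal peaks in a list of 38366, and no peak of the list was narrower. Each was given to the gene spans that held its summit, the base of highest signal. The width came from the same comparison of libraries as every score of a peak. Widths, folds, depths and gene classes are therefore given as descriptions, with no test.

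N6-methyladenosine (m6A) is a mark that a nuclear enzyme complex writes on adenosines of messenger RNA, often within the letters GGAC and close to the stop codon. Reader proteins bind the mark and change how the RNA is spliced, translated or degraded. In methylated RNA immunoprecipitation sequencing (MeRIP-seq), fragmented RNA is pulled down with an anti-m6A antibody, and a peak is a stretch where the immunoprecipitated (IP) fragments outnumber the background. The width of a peak is the length over which that excess holds, so it is a property of fragments and coverage and not the size of a methylated site.

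The IP group was 1 library of whole uterus from C57BL/6 mice, in which tissue of gestation days 4 and 8 was combined in equal parts before the anti-m6A antibody (Synaptic Systems) was used. The input group was 1 library of C57BL/6 whole uterus with no antibody, and its label does not mention combined days. No genotype, treatment or age of the mice is given. With 1 library per group, no value has a replicate, and the number of animals is not known from the labels. The peak names mention day 8 alone, so the makeup of the IP sample rests on its label. Bulk RNA of a whole organ cannot tell fewer cells of a type from less RNA per cell. The file holds no expression values. As a check of the tissue, a peak of any width was carried by 16 of 16 smooth muscle, 16 of 16 endothelial, 12 of 13 stromal, 15 of 18 epithelial, 13 of 17 immune and 7 of 19 trophoblast and embryo markers, beside 57.2% of all autosomal protein-coding genes. Lists that mark no tissue were as high, with 48 of 51 chromatin regulators, so this check says little about the cells.

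Few of these peaks had reference sequence at hand. RefSeq promoter windows (GRCm38.p6, the assembly behind mm10) hold 250 bases before and 50 after an annotated transcription start. In all, 142 of the 2451 peaks (5.79%) overlapped such a window, against 2314 of the 34722 wider autosomal peaks (6.66%). The 5 protein-coding genes with the most enriched of these peaks were Mpc2, Nfatc2ip, Gid4, Cyp11a1 and Tubgcp6. The stretches that the peaks share with the windows are printed on the strand of the named gene, as the part of these peaks with sequence at hand, with GGAC in capitals. Those near Gid4 and Tubgcp6 lie wholly before the listed start and are not in those genes as annotated.
Mpc2 chr1:165461249-165461309 (+): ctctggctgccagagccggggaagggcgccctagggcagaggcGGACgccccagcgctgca
Nfatc2ip chr7:126396688-126396759 (-): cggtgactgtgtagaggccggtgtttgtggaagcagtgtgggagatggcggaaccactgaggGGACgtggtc
Gid4 chr11:60416895-60416957 (+): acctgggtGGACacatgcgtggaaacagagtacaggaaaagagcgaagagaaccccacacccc
Cyp11a1 chr9:58014978-58015001 (+): ggctctggaggtttggggcagaga
Tubgcp6 chr15:89123326-89123400 (-): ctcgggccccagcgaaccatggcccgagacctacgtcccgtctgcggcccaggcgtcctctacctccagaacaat

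The peak of Mpc2, which encodes a subunit of the mitochondrial pyruvate carrier, ran over chr1:165461249-165461448 with its summit 82 bases after the start. It had 22 IP fragments over a background of 1.85, which gave 8.06-fold enrichment (5.18 to 12.03). It was the single peak of that gene. In Nfatc2ip, named for its binding to the transcription factor NFATC2, the summit lay 148 bases after the start and reached 8.03-fold (4.34 to 13.8) from 11 IP fragments. In Cyp11a1, the enzyme that makes pregnenolone from cholesterol as the first step of steroid synthesis, the summit lay 149 bases after the start. That peak was among the deepest of the set, with 71 IP fragments over a background of 9.26, and reached 7.02-fold (5.50 to 8.82). In Gid4, a substrate receptor of a ubiquitin ligase, and Tubgcp6, a part of the gamma-tubulin complex, the summits lay 217 and 317 bases before the listed start, at 7.50-fold (4.33 to 12.2) and 6.63-fold (4.26 to 9.89). The summit near Gid4 lay inside the span of Atpaf2, which encodes an assembly factor of the mitochondrial ATP synthase, and was the only kind of peak Atpaf2 had. By the summit rule the peak was given to Atpaf2 alone, and it is printed under Gid4 only for its promoter window. The list carries no strand, so the strand of the RNA under the peak is not known.

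Another 13 peaks lay whole inside a promoter window of a protein-coding gene, so their full sequence could be read. The 4 with the highest folds are printed here on the gene strand, again with GGAC in capitals.
Ccnyl1 chr1:64691187-64691386 (+): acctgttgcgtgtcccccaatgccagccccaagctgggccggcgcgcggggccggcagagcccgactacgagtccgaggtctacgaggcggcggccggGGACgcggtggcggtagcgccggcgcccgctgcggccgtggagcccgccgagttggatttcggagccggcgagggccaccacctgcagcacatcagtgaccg
Tspan2 chr3:102735016-102735215 (+): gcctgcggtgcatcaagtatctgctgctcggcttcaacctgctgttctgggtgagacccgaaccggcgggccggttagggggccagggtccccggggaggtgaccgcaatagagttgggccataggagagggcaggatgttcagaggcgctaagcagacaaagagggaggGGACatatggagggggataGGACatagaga
Srebf1 chr11:60222632-60222831 (-): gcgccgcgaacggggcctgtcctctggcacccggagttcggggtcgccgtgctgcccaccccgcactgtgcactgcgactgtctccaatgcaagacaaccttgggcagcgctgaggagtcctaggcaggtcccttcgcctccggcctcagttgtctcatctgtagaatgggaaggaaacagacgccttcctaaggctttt
Rad18 chr6:112696700-112696899 (-): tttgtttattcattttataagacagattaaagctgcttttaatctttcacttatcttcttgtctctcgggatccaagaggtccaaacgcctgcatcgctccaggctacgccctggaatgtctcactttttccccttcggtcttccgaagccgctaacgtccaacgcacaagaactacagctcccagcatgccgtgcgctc

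These 4 peaks reached 6.15-fold in Ccnyl1 (a cyclin Y relative), 6.04-fold in Tspan2 (a tetraspanin), 5.70-fold in Srebf1 (a regulator of lipid synthesis) and 5.47-fold in Rad18 (a ubiquitin ligase of DNA repair), from 7 to 13 IP fragments each. Their summits lay 100 to 129 bases before the listed start, and other annotated starts of these genes were not considered. The summits at Ccnyl1 and Srebf1 still lay inside the annotated spans of those genes. GGAC was found on the gene strand in 8 of the 13 whole peaks and on either strand in 12. The share of all 31396 autosomal promoter windows whose last 200 bases held GGAC was 52.4% on the gene strand and 76.8% on either strand. The longer motif GGACT, which contains GGAC, was on the gene strand in 0 of the 13 and on either strand in 6, against 18.5% and 33.2% of windows. A match of letters is a description and no mapped site, and these 13 peaks were picked by where they lie.

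A microRNA hairpin was covered by 1 of the peaks. It lay at chr3:134240468-134240667 over the 79 bases of Mir1895 at chr3:134240505-134240583 on the minus strand, with its summit 16 bases outside the hairpin. The peak held 6 IP fragments at the genome-wide background, or 4.79-fold (2.19 to 9.62). Hairpins were overlapped by 69 wider peaks (0.199% of them). The RefSeq hairpin and mature sequences are shown because this was the only microRNA hairpin among the 919 on autosomes that was reached. Capitals mark the seed, bases 2 to 8 of the mature strand.
Mir1895 hairpin: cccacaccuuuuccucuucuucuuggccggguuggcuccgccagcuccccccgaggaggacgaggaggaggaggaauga
mmu-miR-1895: cCCCCGAGgaggacgaggagga

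The peaks of 200 bases formed a sharp excess in the width distribution. There were 2451 at 200 bases, 557 at 201 bases and 578 at 202 bases, and numbers then fell slowly. The median summit held 9 IP fragments at 200 bases, 16 at 201 and 15 at 202. Median fold was 5.10 at 200 bases and 5.56 at 201, over median backgrounds of 1.10 and 1.88 scaled fragments. Crossing the limit by a single base thus went with deeper coverage on average, while the ranges overlapped: peaks of 201 to 205 bases held 5 to 178 IP fragments and peaks of 200 bases held 4 to 107. The sources used here do not state the settings of the peak caller or any minimum width.

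**Figure D1:**
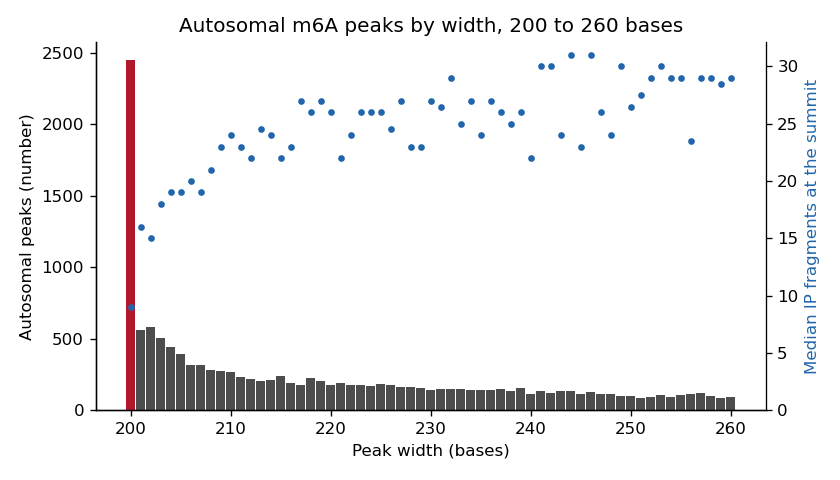
Number of autosomal peaks (bars, left axis) and median IP fragments at the summit (points, right axis) by peak width in bases, from 200 to 260. The bar at 200 bases holds 2451 peaks and the next 557, and the median depth rises from 9 to 16 fragments between them.

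Coverage under these peaks was thin. The quartiles of IP fragments at the summit were 7 and 16, with a median of 9, against 17, 31 and 53 in the wider peaks. The most common value was 7 fragments, found at 433 peaks (17.7%), followed by 8 fragments at 289. The background sat at its genome-wide floor of 0.462 in 589 peaks (24.03%), where the input added nothing local, against 6.00% of wider peaks. Because the fold is (fragments + 1) over (background + 1), those 589 peaks could take only a few values. Of them 306 stood at 5.47-fold with 7 fragments, 136 at 4.79-fold with 6, 64 at 4.10-fold with 5 and 56 at 6.16-fold with 8. Equal folds of peaks at this floor in different genes below arise in this way. A fold of 5.47 from 7 fragments had a 95% Poisson interval of 2.61 to 10.6, which spans most of the range of the whole set.

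**Figure D2:**
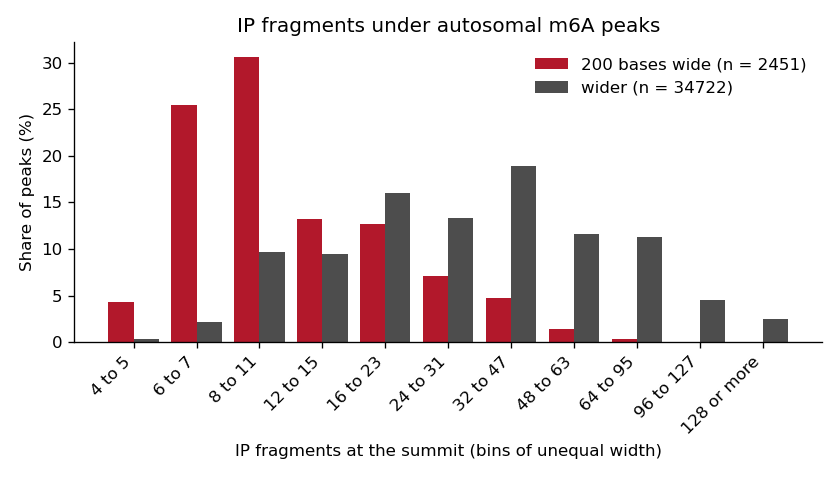
Share of peaks (%) by IP fragments at the summit, in bins of unequal width, for the 2451 peaks of 200 bases and the 34722 wider autosomal peaks. The bin of 8 to 11 fragments holds 30.6% of the first and 9.74% of the second.

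Folds were narrow in range, from 1.82 to 10.6, with quartiles of 4.32 and 5.56. A single peak reached 10-fold, against 5490 wider ones. A fold of at least 4 was reached by 2048 of the 2451 peaks (83.6%), beside 84.4% of all autosomal peaks. A −log10 q of at least 5 was reached by 1577 (64.3%), beside 89.1% of all. The summit lay in the middle 100 bases of the peak in 1693 cases (69.1%), with a median offset of 93 bases from the peak's start. By chromosome, the share of peaks that were 200 bases wide ran from 5.50% on chromosome 11 to 7.71% on chromosome 3.

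These peaks stood farther from other peaks than wider ones did. The median gap to the nearest other peak was 6194 bases, against 2715 bases for wider peaks, and 524 of them (21.4%) had a neighbour within 1000 bases, against 32.02%. Wider peaks with at most 16 IP fragments had a median gap of 5760 bases, and 27.8% of them had a neighbour within 1000 bases. The gap moved with depth inside the set too. It was 13414 bases at peaks of at most 8 fragments and 2664 bases at those of over 16.

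In gene annotation, 1801 of the 2451 summits (73.5%) lay in the span of a protein-coding gene, 138 (5.63%) in a long non-coding RNA gene only and 66 (2.69%) in a pseudogene or other gene only. The remaining 446 (18.2%) lay in no annotated gene. Among wider peaks the shares were 87.2%, 3.05%, 2.07% and 7.72%. Depth moved with this split. At the 1017 peaks of at most 8 fragments, 53.8% lay in protein-coding spans and 33.2% in no gene, while at the 599 of over 16 fragments the shares were 94.7% and 2.50%. Among wider peaks of over 16 fragments they were 92.3% and 4.06%, so above that limit the order of the widths was the other way. The median depth there was 25 fragments at 200 bases and 40 in wider peaks. Wider peaks of at most 16 fragments had 70.8% in protein-coding spans and 19.3% in no gene. Those shares were near the values of all 2451 peaks of 200 bases, which include the 599 of over 16 fragments. The 2 sets therefore differ in depth, and their likeness is not one at equal depth. A median of 11 IP fragments lay under the summits in protein-coding genes, and 7 under those in no gene, where 52.5% stood at the genome-wide background.

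**Figure D3:**
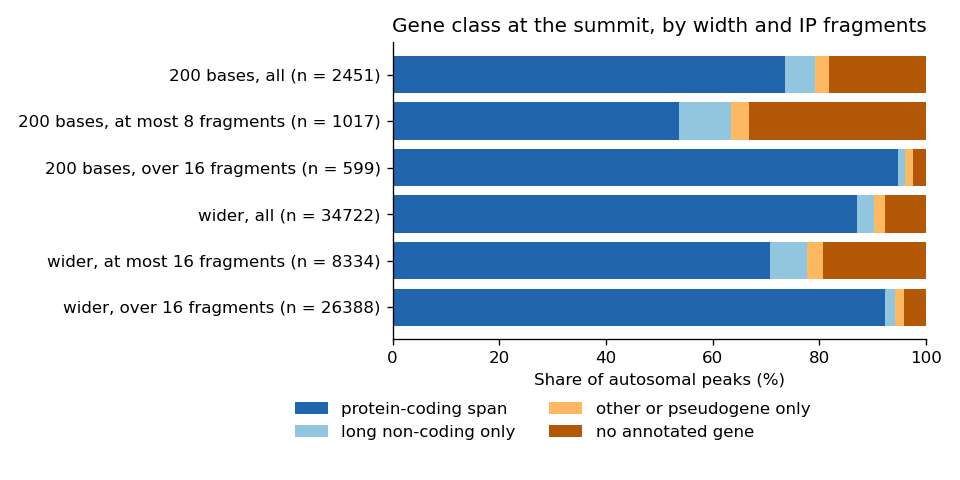
Share of autosomal summits (%) in each gene class for peaks of 200 bases and for wider peaks, each also split by IP fragments at the summit. Peaks outside genes make up 33.2% of the 200-base peaks with at most 8 fragments and 2.50% of those with over 16.

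Summits outside genes lay a median of 9020 bases from the nearest gene span, against 6498 bases for wider peaks. Within 5000 bases of a span lay 160 of the 446 (35.9%), against 43.3% of wider peaks outside genes. The highest of them, chosen after its values were seen, was at chr5:80774646-80774845 with 9.76-fold (5.83 to 15.5) from 16 fragments. The highest of all 2451 lay in the pseudogene Gm8910 at chr3:11013535-11013734, with 24 fragments and 10.6-fold (6.94 to 15.6).

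Within protein-coding genes the summits were spread along the span. The nearer end of the span was a median of 7237 bases away, against 3483 bases for wider peaks. A gene end lay within 1000 bases of 389 of the 1801 summits (21.6%), against 26.2% of wider ones, and over 10000 bases from 780 (43.3%), against 30.8%. Within 250 bases the order was the other way, with 191 summits (10.6%) against 9.86% of wider ones. The strand was known for 80.1% of autosomal protein-coding genes, which left 1304 summits in a single stranded gene. Of these, 148 (11.3%) lay within 1000 bases of the start of the span and 123 (9.43%) within 1000 bases of its end, where wider peaks had 9.995% and 15.9%. The last 10% of the span held 19.6% of the summits, against 30.4% for wider peaks. The first 10% held 15.4%, against 12.3%, and each 10% between held 6.90% to 10.9%. In wider peaks of at most 16 fragments the last 10% held 19.9%, much as here, but the first 10% held 22.6%. No exon positions were used, so a summit in a span may lie in an exon, an intron or an untranslated region.

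**Figure D4:**
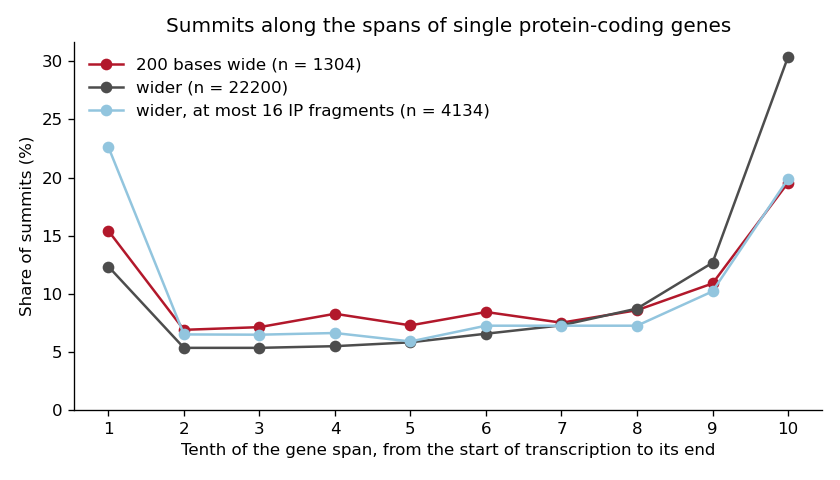
Share of summits (%) in each 10% of the gene span, from the transcription start to the end, in single protein-coding genes of known strand. The last 10% holds 19.6% of the summits of 200-base peaks, 30.4% of those of wider peaks and 19.9% of those of wider peaks with at most 16 IP fragments.

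A total of 1657 autosomal protein-coding genes held a 200-base peak, which is 14.1% of the 11749 that carried any peak. Most of them, 1476, held a single one, 149 held a pair and 32 held 3 or more. The share that held one moved with the number of peaks of the gene. It was 6.02% in genes of 1 peak, 10.4% in genes of 2, 17.6% at 3 to 4 peaks, 28.6% at 5 to 9 and 50.2% at 10 or more. The share of peaks that were 200 bases wide was flat over the same classes, between 5.09% and 6.02%, with 5.62% over all peaks in protein-coding spans. In 1402 genes a wider peak was present as well, and there the 200-base peak was the highest of the gene in 155 (11.1%). For 255 genes the 200-base peaks were the only ones, and 239 of these had just 1 peak in all.

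The most enriched 200-base peaks in single protein-coding genes fell in genes of varied function. Zfp13, a zinc finger gene (NCBI Gene 22654), came first with chr17:23586020-23586219, where 22 IP fragments over a background of 1.36 gave 9.75-fold (6.27 to 14.5). Smarca2 (NCBI Gene 67155), the BRM ATPase of the SWI/SNF chromatin remodeller, followed with chr19:26715926-26716125, at 31 fragments over 2.47 and 9.22-fold (6.36 to 12.97). It was the highest of 14 peaks in Smarca2, and its summit lay deep in the gene, with the nearer end 62341 bases away. Plcb4 (NCBI Gene 18798), a phospholipase C that signals below G-protein-coupled receptors, had 8.998-fold (5.53 to 13.9) at chr2:136002382-136002581 with 18 fragments. The intervals of these 3 peaks overlapped one another.

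The next of these genes encode phosphatases, kinases and trafficking proteins among others. The tyrosine phosphatase gene Ptpn4 had 8.95-fold and the NDR kinase gene Stk38 8.64-fold. Polr2j, a subunit of RNA polymerase II, had 8.54-fold with 36 IP fragments, the deepest of this group, 872 bases from the end of its 6257-base span. Fnbp1, a membrane-bending adaptor, had 8.14-fold and the tyrosine phosphatase gene Ptpn13 8.07-fold. Efcab14, the pyruvate carrier gene Mpc2 and Rhoq, a small GTPase, all had 8.06-fold, each from 22 fragments over 1.85. Coro7, a coronin of the Golgi, had 8.06-fold from 19 fragments over 1.48. In 8 of the 12 genes no other peak was higher, while Efcab14 had a wider peak of 17.5-fold.

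The gene with the most 200-base peaks at summits in no other gene was Cpa6, a secreted carboxypeptidase gene, with 7 among its 31 peaks over a span of 424263 bases. All 7 lay at least 47373 bases from either end of Cpa6, and none exceeded 5.72-fold. Their folds in order of position along chromosome 1 were 5.03, 5.36, 4.59, 5.72, 4.03, 2.94 and 4.92, each from 7 to 11 IP fragments. The backgrounds of these 7 peaks ran from 0.741 to 3.09. After it, 26 genes held 3 each. Those with the highest folds were Zfp13 (9.75, 4.95 and 4.43-fold), Limch1, an actin-binding protein (7.42, 6.02 and 5.37-fold), the centrosomal gene Cep162 (7.04, 5.37 and 4.89-fold) and the bromodomain gene Baz2b (7.03, 4.91 and 4.16-fold). In Limch1 the 3 lay 26381 to 54734 bases before the end of the gene.

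The deepest 200-base peaks, named after their values were seen, had 74 to 107 IP fragments. Rpl32, a ribosomal protein gene, held the deepest pair at chr6:115805629-115805828 and chr6:115807129-115807328, with 107 and 83 IP fragments. The background there was 44.5 and 28.4, so their folds were only 2.38 (1.95 to 2.87) and 2.86 (2.28 to 3.53). Fndc3b had 74 fragments at 1.82-fold (1.44 to 2.28), the lowest fold of the set. S100a8, a calcium-binding protein of neutrophils, also had 74 fragments, but over a background of 9.88, at 6.89-fold (5.43 to 8.63). Gng5, a G-protein gamma subunit, had 74 as well, over 18.5, at 3.84-fold (3.03 to 4.81). The interval of S100a8 did not reach those of Rpl32, Fndc3b or Gng5.

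The receptor genes of progesterone and estrogen, Pgr and Esr1, held none of these peaks. The progesterone receptor gene Pgr had 8 peaks, the narrowest of 224 bases, and the estrogen receptor gene Esr1 had 17, the narrowest of 209. In the m6A writer core, the single peak of Mettl14 was 215 bases wide, and Mettl3 had none of any width. Among 24 peak-carrying genes of progesterone signalling, 1 held a 200-base peak (4.17%, beside 14.1% over all peak-carrying genes). It was Fkbp5, a co-chaperone of steroid receptors, at 5.24-fold (3.18 to 8.22) with 17 fragments, beside a wider peak of 15.0-fold. Of 22 such genes of estrogen signalling 0 held one, and of 12 stromal markers 0. Those lists held 96 and 36 peaks in all. Their wider peaks were deep, with median depths of 40 and 68.5 fragments against 31 over all wider autosomal peaks. Such depth was not particular to them. Among lists that held 200-base peaks the medians were 60 in extracellular matrix, 65 in smooth muscle and 77 in ribosomal protein genes. Only synaptic genes (14), immune markers (21.5) and epithelial markers (26) lay below 31.

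Genes of decidualization and implantation, the change of uterine stroma that receives the embryo, held one in 4 of 29 (13.8%, beside 14.1% over all peak-carrying genes). By peaks, 4 of 119 were 200 bases wide (3.36%), below the 5.62% over all peaks in protein-coding spans. The highest were Hif1a, the hypoxia factor, at 5.56-fold (2.75 to 10.4) with 8 fragments and Msx1, a homeobox factor of implantation, at 4.95-fold (2.36 to 9.53) with 7. Alpl, an alkaline phosphatase that marks decidual stroma, had 4.88-fold (3.23 to 7.12) with 25 fragments. The fourth, Mmp2, a gelatinase, had 62 fragments over 16.1 and 3.69-fold (2.85 to 4.72). The Msx1 summit lay in a second gene span as well. All 4 genes had a wider and higher peak, from 7.09-fold in Msx1 to 12.7-fold in Hif1a.

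Among markers of cell types of the uterine wall the counts were small. Smooth muscle markers held one in 3 of 16 genes (18.8%, beside the 14.1% over all peak-carrying genes), in Myocd, a coactivator of muscle genes, at 5.53-fold, Oxtr, the oxytocin receptor, at 5.03-fold with 8 fragments, and Synpo2, an actin-associated protein, at 3.82-fold. With a −log10 q of at least 5 the smooth muscle count was 1. Endothelial markers also held one in 3 of 16, in the phosphatase Ptprb at 4.90-fold, the transcription factor Mecom at 4.65-fold and the adhesion molecule Pecam1 at 2.72-fold with 32 fragments. By peaks, 3 of 92 in smooth muscle markers (3.26%) and 3 of 66 in endothelial markers (4.55%) were 200 bases wide. Both shares lay below the 5.62% over all peaks in protein-coding spans. The 6 genes with a 200-base peak also had wider peaks, of 8.07-fold to 15.9-fold at the highest. Of 15 epithelial markers with a peak, Ovol2, a zinc finger repressor, was the 1 that held a 200-base peak, and of 13 immune markers it was H2-Aa, an MHC class II chain. Of 7 trophoblast and embryo markers it was Tfap2c, at 4.92-fold with 17 fragments. Which cells of the organ the methylated RNA came from cannot be read from a marker gene with a peak.

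For 6 of the 61 listed genes with a 200-base peak there was no wider one, and these peaks held 6 to 18 IP fragments. Ovol2 had 6 fragments at 4.79-fold (2.19 to 9.62) and H2-Aa had 8 at 5.93-fold (2.93 to 11.04). Wnt2, a secreted Wnt ligand, had 9 at 5.74-fold (2.94 to 10.4). Rpl29 had 9 at 4.82-fold (2.47 to 8.72) and Rps2 had 18 at 4.15-fold (2.55 to 6.43), the latter in more than 1 gene span. Csmd3 held a pair of 200-base peaks and no other, the higher at 6.16-fold (3.05 to 11.5) from 8 fragments.

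Large synaptic and neural adhesion genes held one most often among the lists, in 10 of the 21 that carried a peak (47.6%). Of their 98 peaks 15 were 200 bases wide (15.3%), beside 5.62% over protein-coding spans. The order by genes did not hold at a −log10 q of at least 5, where 6 of 20 such genes held one and so did 10 of 33 extracellular matrix genes, beside 10.03% of peak-carrying genes in all. By peaks the counts at that limit were 9 of 80 (11.25%) and 12 of 141 (8.51%). With summits in only 1 gene span, 7 of 20 synaptic genes held one (35%). Csmd3, Ctnna3, an alpha-catenin, and Nrxn3, a presynaptic neurexin, shared 6.16-fold from 8 fragments at the genome-wide background. The Ctnna3 summit lay in the span of Lrrtm3 as well. The median span of the 21 genes was 1185 kb, and their wider peaks had a median of 14 fragments. Epithelial and immune markers also had thin wider peaks, with medians of 26 and 21.5 fragments. Their gene shares were 6.67% and 7.69%. In extracellular matrix genes the median was 60. A part of length or depth in the count of synaptic genes was not tested. Extracellular matrix genes held one in 10 of 34 (29.4%) and in 12 of 152 peaks (7.89%). They were led by Fbn2, a fibrillin, at 6.36-fold (3.35 to 11.2), Col18a1, whose fragment is endostatin, at 6.16-fold and Col15a1, a related collagen, at 6.13-fold.

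Chromatin regulators held one in 11 of 48 genes (22.9%), but in 12 of 340 peaks (3.53%), below the 5.62% of all. After Smarca2 came Smarcc2, a core subunit of the same remodeller, at 6.48-fold (4.28 to 9.44) and the histone methyltransferase Kmt2b at 6.14-fold (4.12 to 8.84). The median depth of the 12 was 30.5 fragments, the highest among the lists, and 0 stood at the genome-wide background. In the m6A machinery both shares were near those over all genes. There 4 of 70 peaks were 200 bases wide (5.71%, beside 5.62%), and 3 of 19 genes held one (15.8%, beside 14.1%). They were the writer subunits Zc3h13 at 6.56-fold (3.91 to 10.4) and Virma at 5.65-fold (3.06 to 9.74), and the reader Igf2bp2 at 5.62-fold, with a second one in the same gene. Zc3h13 also had a wider peak of 23.9-fold.

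**Figure D5:**
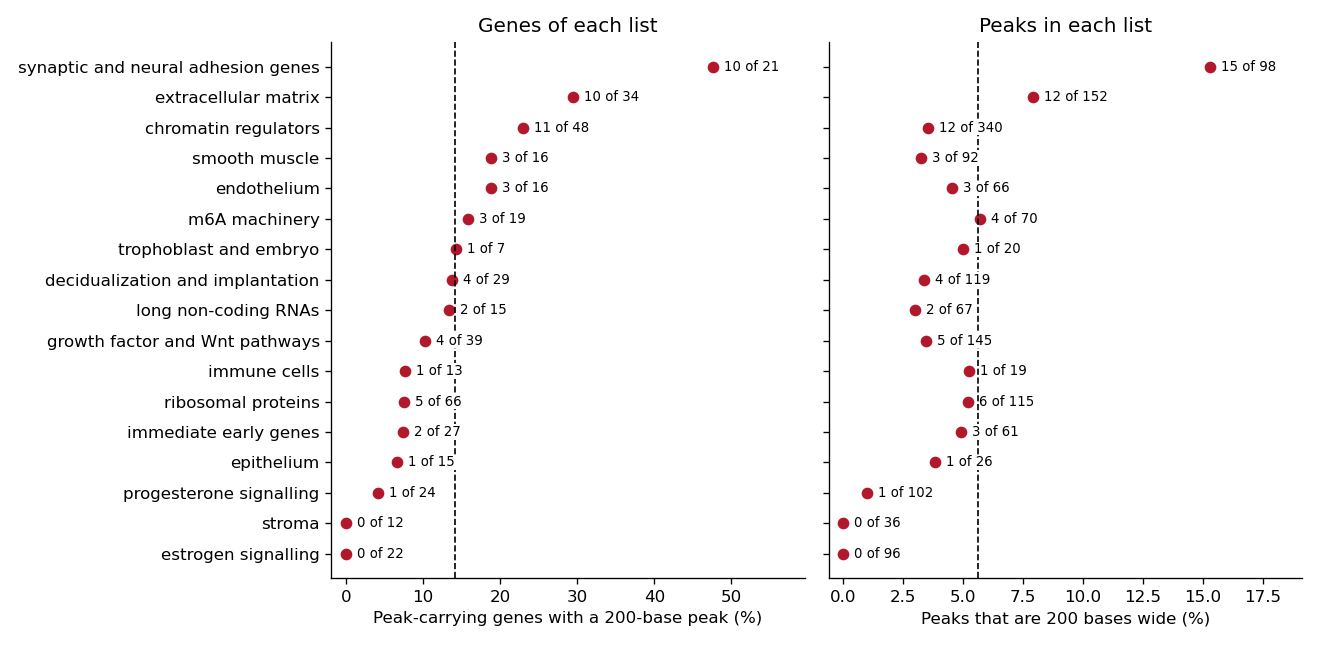
For each gene list, the share of peak-carrying genes with a 200-base peak (left, %) and the share of the list's peaks that are 200 bases wide (right, %), with the counts beside the points. Dashed lines mark 14.1% and 5.62%, the shares over all autosomal protein-coding genes with a peak and over their peaks. Synaptic genes lie at 47.6% and 15.3%, and chromatin regulators at 22.9% and 3.53%.

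The other lists lay below or near the overall share of genes. By peaks, 6 of 115 in ribosomal protein genes (5.22%) and 3 of 61 in immediate early genes (4.92%) were 200 bases wide, near the 5.62% of all. In growth factor and Wnt pathway genes 5 of 145 were (3.45%). Ribosomal protein genes held one in 5 of 66 (7.58%), the highest in Rpl38 at 5.42-fold, Rpl29 at 4.82-fold and Rpl11 at 4.81-fold. Immediate early genes held one in 2 of 27, Nr4a3, an orphan nuclear receptor, at 5.36-fold and Fosb, an AP-1 factor, at 5.06-fold. Growth factor and Wnt pathway genes held one in 4 of 39 (10.3%). Axin2, a feedback inhibitor of Wnt signalling, had 7.06-fold (4.44 to 10.7) with 20 fragments and held a second one, followed by Wnt2 and by Insr, the insulin receptor, at 4.92-fold. Among the long non-coding RNAs of the lists, 15 had a peak and 2 held one of 200 bases, the imprinted Airn at 4.79-fold, in a second gene span as well, and Lncpint at 3.62-fold. Over all autosomal long non-coding genes with a peak, 233 of 1529 (15.2%) held one.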

How the data were processed

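The submitters' processing notes name the tools HISAT2 2.2.1 and MACS3 3.0.0a7 and the build mm10. No source used here states settings, a minimum width or how duplicate reads were treated. The deposited peak list gives positions, a fold enrichment (a ratio of IP to background at the summit), and −log10 p and −log10 q values, all as the authors' caller wrote them. The deposited display score was not used. IP fragments and background per peak were recovered from the deposited fold, read as (k + 1)/(background + 1), and the Poisson p, within 0.001 of the −log10 p at 100% of peaks. In a test on simulated data 100% of 2000 depths were recovered. Intervals on folds are exact 95% Poisson intervals on k with the background fixed and cover counting error only. Library sizes are not known.

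Positions are printed counted from 1. Gene spans (49636 genes), strand and sequences are RefSeq GRCm38.p6, matched by gene ID and symbol. Peaks were given to genes by summit, with protein-coding spans taking precedence in the classes. No exon positions were used. The 17 gene lists, the alternatives and the 200-base rule were chosen with earlier results of these data known, and so were the genes to be named: the 12 highest folds in single protein-coding genes, the 5 genes with the most such peaks (ties broken by fold), the 3 highest per list, Pgr, Esr1, Mettl3 and Mettl14, hairpins, and the 5 highest at promoter windows. With 1 library per group no test was run. Values were computed and plotted with matplotlib 3.10.9, scipy 1.17.1, pandas 2.3.3 and numpy 2.4.6 under Python 3.11.15.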

Additional observations from a re-analysis of the deposited data

How the results depend on the processing

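Requiring a −log10 q of at least 5 left 1577 peaks of 200 bases, with a median fold of 5.47, 76.3% in protein-coding spans and 19.3% of those within 1000 bases of a gene end. Widening the rule to 200 to 210 bases gave 6376 peaks and 3959 protein-coding genes, with a median fold of 5.47 and 79.6% in protein-coding spans. With a fold of at least 4 the median was 5.399 and the protein-coding share 71.3%. Within 250 bases of a gene end lay 10.6% of summits, against 9.86% of those of wider peaks. Among alternatives chosen after seeing the data, peaks of over 8 IP fragments had 87.4% in protein-coding spans, and peaks above the genome-wide background had 82.4% and a median fold of 4.95. Adding the sex chromosomes and the mitochondrial genome, linking by 1 base of overlap, or keeping only summits in 1 gene moved none of the values computed under them beyond their counting interval or 1.5 times. Of the 17 list counts, 1 moved by over 1.5 times with single-gene summits and 5 with the −log10 q limit. The first was that of the long non-coding RNAs (2 to 1), and under the limit that list again went to 1, smooth muscle went from 3 to 1, epithelium from 1 to 0, synaptic genes from 10 to 6 and immediate early genes from 2 to 1. No paired analysis was possible because each group has 1 library and no test was run.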

Other observations

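Outside the autosomes, 91 of 1121 peaks on chromosome X (8.12%) and 9 of 62 on chromosome Y (14.5%) were exactly 200 bases wide, and 0 of 10 on the mitochondrial genome. Those on chromosome X had a median of 8 IP fragments and a median fold of 5.19. The most enriched 200-base peaks in long non-coding genes lying in no other gene, chosen after their values were seen, were in Gm40175 at 7.42-fold (4.01 to 12.8), Gm39900 at 6.71-fold (3.87 to 10.96) and Gm52696 at 6.31-fold (3.82 to 9.89), from 11, 14 and 17 IP fragments. Among the genes with no wider peak, the highest after Mpc2 were Rasgef1c at 8.04-fold (4.45 to 13.6), a Ras guanine nucleotide exchange factor gene, and Shisa5 at 7.73-fold (4.97 to 11.5).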
